A study of Mus musculus with 9 samples.

Results

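The genes described here encode the nuclear subunits of complexes II, III, IV and V of oxidative phosphorylation. They were taken by mouse symbol, as all genes beginning with Uqcr, Cox4 to Cox8 or Atp5 together with Sdha, Sdhb, Sdhc and Sdhd, without the entries marked as pseudogenes, keeping those whose normalized counts averaged 10 or more over the 9 libraries. This gave 41 genes of the 12100 with such a mean and of 32285 identifiers in all. Complex II had 4 of them, complex III 8, complex IV 12 and complex V 17. Of the 47 symbols that matched at any level, 6 isoforms of complex IV known from other tissues or states stayed below the mean. Cox7a1, a muscle isoform, lay just outside with a mean of 9.18, and Cox4i2, Cox6a2, Cox7b2, Cox8b and Cox8c had means between 0 and 1.19. Just inside lay Cox6b2, the testis isoform of subunit 6b, with a mean of 13.7. Symbols are those of an older annotation, so subunits with other names, such as Cyc1 of complex III, Ndufa4 of complex IV and the inhibitor Atpif1 of complex V, are given with the partner genes.

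Complex II, succinate dehydrogenase, oxidizes succinate to fumarate in the citric acid cycle and hands the electrons to ubiquinone. Complex III passes them from ubiquinol to cytochrome c, complex IV from cytochrome c to oxygen, and complex V, the ATP synthase, uses the proton gradient that complexes III and IV help to build. All subunits of complex II come from nuclear genes, whereas complexes III, IV and V also hold subunits made on mitochondrial ribosomes, which drugs of the tetracycline class are known to be able to inhibit. Hepatocytes are rich in mitochondria and use this pathway heavily for gluconeogenesis and urea synthesis.

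The libraries were made from total RNA of the livers of 4-week-old male Tet-OFF mice in 3 groups of 3. Such mice carry PB CAG-CreERT2, a tamoxifen-dependent Cre under the broadly active CAG promoter, and at Rosa26 both a loxP-stop-loxP tTA and the reporter tetO-Venus-ires-mCherry, all made in V6.5 embryonic stem cells. Every group, Control included, received tamoxifen, so the controls express the transactivator and the reporter, while Dox and Tc switch the reporter off. The Dox group drank Dox hyclate (doxycycline) and the Tc group Tc hydrochloride (tetracycline), each at 2 mg/mL in water with sucrose, for 7 days. Whether the controls drank sucrose water is not given in the sources used here. Both drugs share the tetracycline ring system and differ in where a hydroxyl group sits. The study compared them to see how far each perturbs transcription beyond the transgene, at the same concentration in water and for the same time. Intake and drug levels in these mice are not given in the sources used here, and the paper cites a shorter serum half-life for Tc than for Dox.

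Values are normalized counts, that is reads per gene divided by a size factor for each library. Whole reads could be recovered from all of these values, with sums from 7426136 to 12183041 per library. In each group the values of library 3 could be written, to a close approximation, as a mixture of its libraries 1 and 2, with weights of 55.6% and 43.9% in Control, 61.2% and 34.6% in Dox and 58.5% and 40.3% in Tc. Of the genes over 2-fold apart between libraries 1 and 2, library 3 lay between them for 211 of 215, 2972 of 2987 and 470 of 473. The study describes its groups as independent samples. Whether libraries 3 are was not tested, so SDs and p-values measure only the spread between these libraries, and values without libraries 3 stand beside the main results. The hepatocyte markers Alb, Apoa1, Ttr, Cps1 and Tat were high in every library, with sums from 1096058 to 1565396 normalized counts in Control, 571171 to 784927 in Dox and 765727 to 1225286 in Tc, and 0 of 5 passed the limma test at an adjusted p under 0.05 in any comparison.

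Markers of some other liver cells differed between the groups. With Dox, 2 of 5 Kupffer cell markers (Clec4f, Adgre1) and 3 of 5 sinusoidal endothelial markers (Stab2, Clec4g, Kdr) fell in the limma test. The Kupffer sum ranged from 6136 to 9967 in Control, 1709 to 4333 in Dox and 2916 to 5718 in Tc, and the endothelial sum from 4004 to 4126, 1925 to 2455 and 2960 to 3498. Of 3 cholangiocyte markers tested, Sox9 rose with Dox, and of 3 erythroid markers Hba-a1 fell, with cholangiocyte sums from 199.9 to 244, 148 to 372 and 255 to 335, and erythroid sums from 1175 to 4585, 647 to 2266 and 1071 to 1924. These were not shared by each whole list: with Dox 2 of 3 cholangiocyte and 1 of 3 erythroid markers were above 0. Both Dox sums overlapped those of Control. No stellate (5 tested), neutrophil (4) or muscle (3) marker was called by limma. Their sums ranged from 2688 to 2924, 2202 to 3316 and 2615 to 3133 for stellate cells, from 39.2 to 371, 4.2 to 119 and 8.8 to 107 for neutrophils, and from 104 to 128, 0 to 144 and 5.9 to 8.4 for muscle, while Ucp1 of brown fat was at 0 in every library. DESeq2 called 2 hepatocyte, 1 stellate and 1 neutrophil marker with Dox, where 0, 1 and 1 had an unadjusted limma p under 0.05, and all 3 muscle markers with Tc, where all 3 did. DESeq2 also called 4 Kupffer, 3 endothelial, 1 cholangiocyte and 2 erythroid markers with Dox, and 2 erythroid markers with Tc. With Tc no marker was called by limma against Control, and between Dox and Tc only Stab2 was, lower with Dox. Without libraries 3 limma called 0 of all 12100 genes in each comparison, so no limma call of a marker was kept. In bulk liver, fewer cells of a type and less RNA per cell cannot be told apart, and the part of these shifts in the members' values was not tested. The 41 genes together took from 0.486 to 0.561% of the normalized total in Control, 0.703 to 0.732% in Dox and 0.519 to 0.704% in Tc, while albumin alone took from 9.90 to 12.8%, 2.99 to 6.07% and 5.78 to 9.98%.

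Promoters were read from RefSeq windows of 300 bases, from 250 before to 50 after the start of each gene, in GRCm38.p6, and 31 of the 41 genes matched a window. Genes of the respiratory chain are known targets of NRF1 and of GABP, an ETS factor. The NRF1 core was searched as CGCANGCG and the ETS core as CCGGAAG, and a YY1 motif as AAGATGGCG, each on both strands. The letters of the NRF1 and ETS cores cannot overlap, while those of the YY1 motif can share ends with either. The NRF1 core was in 13 of the 31 windows (41.9%), against 17.5% of 9525 windows of genes tested and 8.4% of all 27025 windows. The ETS core was in 11 (35.5%, against 18.4 and 9.1%), and AAGATGGCG in 1 (3.2%, against 3.3 and 1.5%), that of Atp5j2, where it overlapped neither of the others. By complex, the NRF1 core was in 2 of 3 windows of complex II, 3 of 5 of complex III, 1 of 10 of complex IV and 7 of 13 of complex V, and the ETS core in 2, 2, 3 and 4 of these. Any of the motifs was in 19 of the 31 (61.3%, against 34.1 and 16.9%). A match is a description of the letters and no sign of binding. The windows printed here belong to the 3 genes that rose with Dox, to Cox6b2, which had the largest fold difference of the members, and to Sdha, whose values spread most among the Dox libraries on the scale of counts. They lie, in this order, at chr11:4704295-4704594, chr7:30626065-30626364, chr19:7217567-7217866, chr7:4753045-4753344 and chr13:74350191-74350490, all on the minus strand, and are printed 5′ to 3′ with the NRF1 core or ETS core, on either strand, in capitals.
Uqcr10: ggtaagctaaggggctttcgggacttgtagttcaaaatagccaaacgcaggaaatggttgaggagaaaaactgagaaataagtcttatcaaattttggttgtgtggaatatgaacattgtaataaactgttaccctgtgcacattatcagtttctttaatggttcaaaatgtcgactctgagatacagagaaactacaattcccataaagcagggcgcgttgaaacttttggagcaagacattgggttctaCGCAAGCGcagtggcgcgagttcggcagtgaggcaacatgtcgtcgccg
Cox6b1: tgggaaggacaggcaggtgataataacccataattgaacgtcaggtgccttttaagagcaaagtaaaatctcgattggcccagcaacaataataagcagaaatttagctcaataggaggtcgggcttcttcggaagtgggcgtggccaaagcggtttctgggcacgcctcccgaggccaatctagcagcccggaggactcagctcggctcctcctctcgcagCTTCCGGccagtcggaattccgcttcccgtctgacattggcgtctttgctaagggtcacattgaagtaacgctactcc
Cox8a: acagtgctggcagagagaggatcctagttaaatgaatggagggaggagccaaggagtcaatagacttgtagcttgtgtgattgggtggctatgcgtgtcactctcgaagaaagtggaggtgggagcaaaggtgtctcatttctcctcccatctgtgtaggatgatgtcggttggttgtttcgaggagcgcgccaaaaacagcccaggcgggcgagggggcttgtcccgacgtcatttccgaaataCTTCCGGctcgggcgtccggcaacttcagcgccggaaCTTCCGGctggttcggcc
Cox6b2: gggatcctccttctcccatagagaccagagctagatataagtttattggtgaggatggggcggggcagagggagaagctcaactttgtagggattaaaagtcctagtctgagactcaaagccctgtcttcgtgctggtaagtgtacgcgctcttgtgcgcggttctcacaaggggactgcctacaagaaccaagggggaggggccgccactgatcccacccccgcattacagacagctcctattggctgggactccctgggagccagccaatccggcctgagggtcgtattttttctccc
Sdha: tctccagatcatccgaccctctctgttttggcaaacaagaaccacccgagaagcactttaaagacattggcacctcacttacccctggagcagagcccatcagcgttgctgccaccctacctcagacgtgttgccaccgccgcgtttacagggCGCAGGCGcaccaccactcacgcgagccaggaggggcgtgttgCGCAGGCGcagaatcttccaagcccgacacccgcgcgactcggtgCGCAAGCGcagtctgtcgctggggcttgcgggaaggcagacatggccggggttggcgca
The Uqcr10 window held 1 NRF1 core, the Sdha window 3, the Cox6b1 window 1 ETS core and the Cox8a window 2, and the Cox6b2 window held none of the 3 motifs.

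Levels were compared between genes only per length, as normalized counts per kilobase of merged exons. The catalytic subunits of the ATP synthase stood highest in Control, Atp5b (beta) at 2407 ± 116 and Atp5a1 (alpha) at 2112 ± 28.7 (SD, n = 3), followed by Cox4i1 at 1902 ± 316, which did not differ from Atp5a1 beyond that spread. Cox6b1 came next at 1499 ± 148. The lowest were Cox6b2 at 2.60 ± 2.35 and Atp5l, the g subunit of the ATP synthase, at 2.701 ± 0.12. The median member stood at 780.1, 747 and 736 in the Control libraries for complex II, 693, 725 and 705 for complex III, 464, 506 and 498 for complex IV, and 348, 363 and 347 for complex V. In each control library the order was II, III, IV and V, but without the highest member of each complex III stood above II, at 685, 673 and 697 against 566, 480.5 and 562. With Dox these medians were 957, 612 and 900.0, then 954, 691 and 877, then 783, 540.4 and 657, and 498, 352 and 422, so that Dox library 2 was the lowest of its group in every complex and there complex III stood above complex II. The order also depended on the length used, and the principal transcript was a length chosen after the values were seen. Per kilobase of it, the Control medians were 1071 for complex II, 1088 for III, 890.4 for IV and 925 for V. Among single genes by this length, Atp5b stayed highest in Control at 5324, followed by Cox4i1 (3957), Uqcrq (3849) and Atp5a1 (2680). Cox6b2 stayed lowest at 6.18, and Atp5s (23.7) stood below Atp5l (32). Merged exons of Atp5l and Atp5g1 span 6443 and 4912 bases against 544 and 596 in the principal transcript, and 73.0 and 58.5% of the 86-base windows of those transcripts occur in other genes, so their levels are uncertain.

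**Figure D1:**
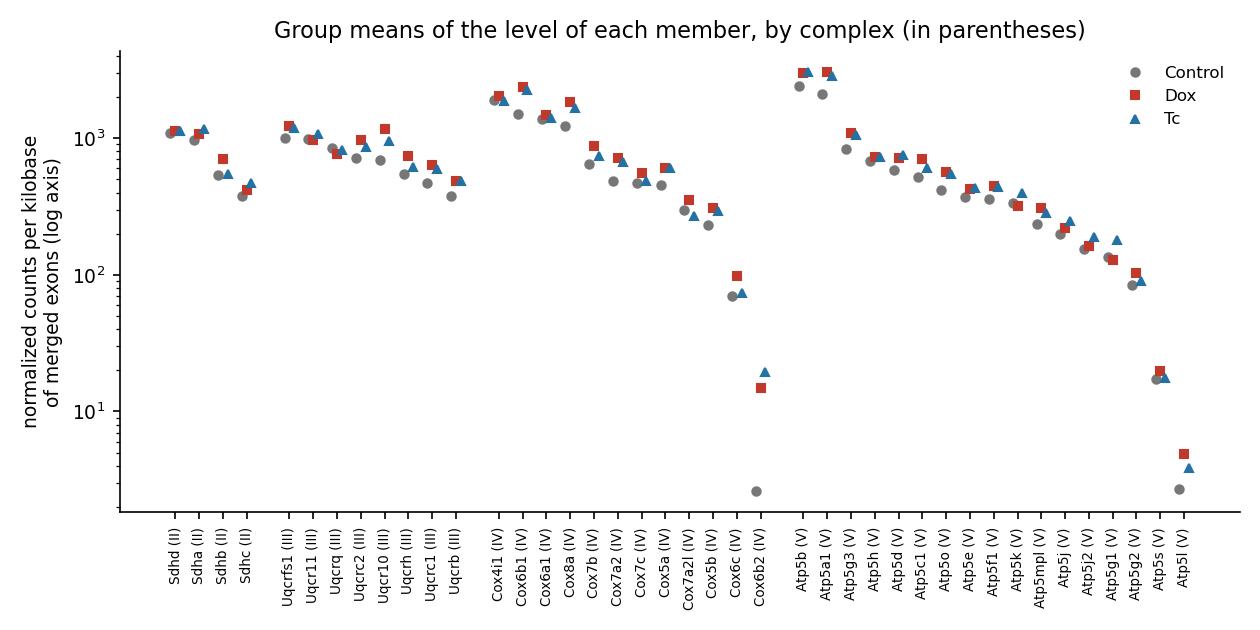
Group means of each of the 41 genes on a log axis, as normalized counts per kilobase of merged exons (vertical) by gene within its complex (horizontal), with gray circles for Control, red squares for Dox and blue triangles for Tc. Atp5b and Atp5a1 stand highest, and Cox6b2 is far lower in Control (2.60) than in Dox (14.9) and Tc (19.6).

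Most members stood above the controls with either drug, by modest amounts. On the log2(normalized count + 1) scale, the median difference of the 41 genes from Control was 0.32 with Dox, with 37 of 41 above 0, and 0.27 with Tc, with 38 of 41 above 0. Cox6b2, which the filter on low values kept only through the treated groups, is in both counts. The median of all 12100 genes tested was 0.0 with Dox and 0.0040 with Tc. When every library was instead given the same total, the median of all genes was 0.17 with Dox and 0.0030 with Tc. The members' median stood 0.32 and 0.26 above it. Such a rescaling moves every gene of a library by nearly the same amount, so this distance could hardly change and is no check on the scaling. Dox and Tc are compared with the same 3 control libraries, so these are not independent results.

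Against Control with Dox, the median was 0.085 for complex II, 0.39 for III, 0.42 for IV and 0.30 for V. With Tc it was 0.15, 0.26, 0.27 and 0.30 in that order. The members of each complex spread widely around these medians: with Dox from 0.040 to 0.40 in complex II, from -0.16 to 0.74 in III, from 0.10 to 2.44 in IV and from -0.12 to 0.69 in V, so the ranges of all 4 complexes overlapped. In complex IV, 12 of 12 members were above 0 with Dox and 10 of 12 with Tc. Cox6b2, which the filter on low values kept only through the treated groups, is in both counts and gave the 2.44. The next highest of complex IV with Dox was Cox6b1 at 0.65. Complex V had 17 of 17 above 0 with Tc and 15 of 17 with Dox.

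In single libraries the complexes differed mostly in Dox library 2. The complex IV median stood at 0.56, 0.37 and 0.40 above the control mean in Dox libraries 1, 2 and 3, complex III at 0.47, 0.29 and 0.37, complex V at 0.45, 0.13 and 0.33, and complex II at 0.50, -0.11 and 0.24. The control libraries themselves lay between -0.059 and 0.094. Thus complexes III, IV and V were above every control library in each Dox library, and complex II in libraries 1 and 3 only. The difference of complex IV minus complex II was 0.062, 0.48 and 0.17 in the Dox libraries, 0.028, 0.24 and 0.053 with Tc, and -0.070, 0.031 and 0.014 in Control. In Dox it passed the range of the controls in each library, and in Tc in libraries 2 and 3. Complex V minus complex IV was -0.11, -0.23 and -0.076 with Dox, 0.048, -0.017 and 0.10 with Tc, and 0.069, -0.096 and 0.044 in Control, outside the controls' range in Dox libraries 1 and 2 and in Tc library 3. With Dox, the complex II median was 0.38 without Dox library 2 and 0.012 without Dox library 1, so how far it stood below the others rested largely on library 2. It was below complexes III, IV and V in Dox libraries 2 and 3, and in Dox library 1 below complex IV only. With 4 to 17 genes in a complex that share libraries, these differences are a description and carry no p-value.

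**Figure D2:**
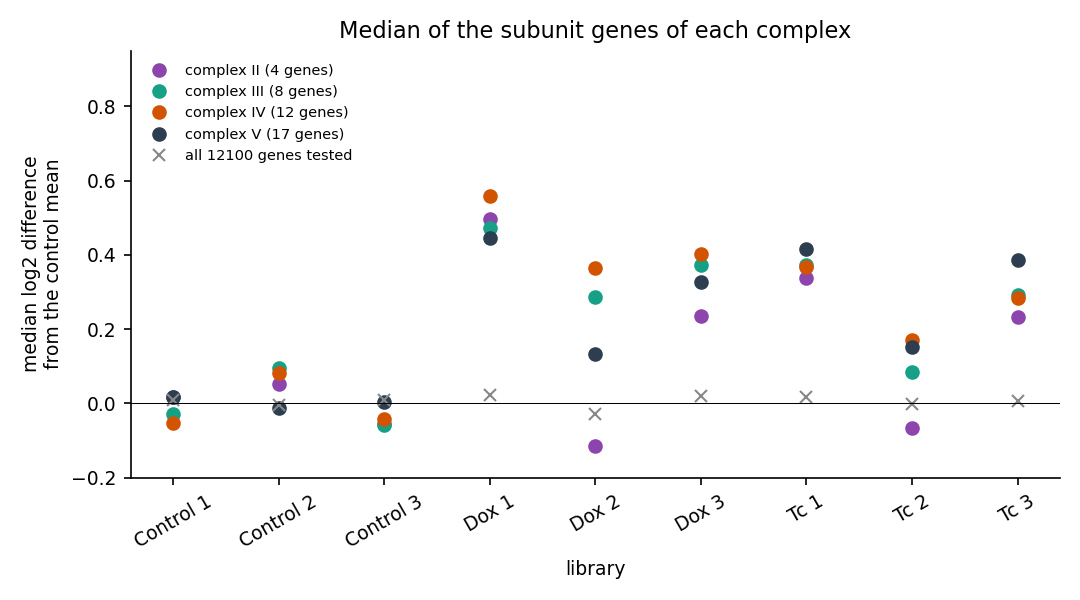
Median log2 difference from the control mean (vertical) over the genes of each complex in each of the 9 libraries (horizontal), with crosses for the median of all 12100 genes tested. All 4 complexes lie well above the crosses in Dox libraries 1 and 3 and Tc libraries 1 and 3, and complex II lies at -0.11 in Dox library 2 and -0.067 in Tc library 2.

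With Dox, 3 members rose and 0 fell in the limma test: Uqcr10 of complex III and Cox6b1 and Cox8a of complex IV. That is 3 of 41 (7.30%), beside 3.16% of all 12100 genes called higher and 5.26% called lower. At an unadjusted limma p under 0.05 there were 19 of 41, all higher, beside 13.6% of all genes. DESeq2 on the recovered reads called 11 members, all higher, beside 5.05% of the 19659 genes it tested. In 20 members every Dox library lay above every control, beside 16.1% of all genes, and in 21 both of Dox libraries 1 and 2 lay above both of control libraries 1 and 2, beside 19.9%. Without libraries 3, limma and DESeq2 each called 0 members, with 3 at an unadjusted limma p under 0.05, beside 3.23%. That fit called 0 of all 12100 genes in limma. Leaving out single libraries, limma called 18 members without Dox library 2, beside 8.03% of all genes called higher in the same fit. It called 5 without Dox library 1 (12.3% of all genes), 2 without Tc library 1 (2.23%), 1 without Tc library 3 (0.909%), and 0 without Dox library 3 or any control library (0.0661 to 0.479%). Cox6b2, which the filter on low values kept only through the treated groups, is in several of these counts. Over the other 40 members they were 18 at an unadjusted p, 10 by DESeq2, 19 above every control, 2 at an unadjusted p without libraries 3 and 4 without Dox library 1.

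Uqcr10 (ENSMUSG00000059534, chromosome 11, 4701973 to 4704342, minus strand in GRCm38), a small subunit of complex III, had 409.7, 393 and 417 normalized counts in Control, 665, 706 and 666 in Dox and 628, 469 and 566 in Tc. All Dox libraries lay above all Tc libraries, and these above all controls. Its Dox mean of 679 ± 23.4 was 1.67 times the control mean of 407 ± 12.4 (SD, n = 3), with a log2 difference of 0.74 (standard error 0.13, limma adjusted p = 0.0158). DESeq2 gave an adjusted p of 4.53e-05, and without libraries 3 the log2 difference was 0.77 with a limma adjusted p of 0.559.

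Cox6b1 (ENSMUSG00000036751, chromosome 7, 30616861 to 30626151, minus strand), a subunit on the intermembrane side at the contact within the complex IV dimer, had 1157, 949 and 1077 normalized counts in Control, 1835, 1536 and 1630.2 in Dox and 1773, 1409 and 1598 in Tc. Both drug groups lay above the controls and overlapped each other. Its log2 difference with Dox was 0.65 (standard error 0.14, limma adjusted p = 0.0296), a fold of 1.57, and without libraries 3 it was 0.68 (limma adjusted p = 0.573). Cox8a (ENSMUSG00000035885, chromosome 19, 7215153 to 7217616, minus strand), a small membrane subunit of complex IV, had 835, 751 and 681 in Control, 1268, 1064 and 1109 in Dox and 1108, 868 and 1118 in Tc. Here too every treated library was above every control. The log2 difference with Dox was 0.60 (standard error 0.15, limma adjusted p = 0.0426), and without libraries 3 it was 0.55 (limma adjusted p = 0.576).

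**Figure D3:**
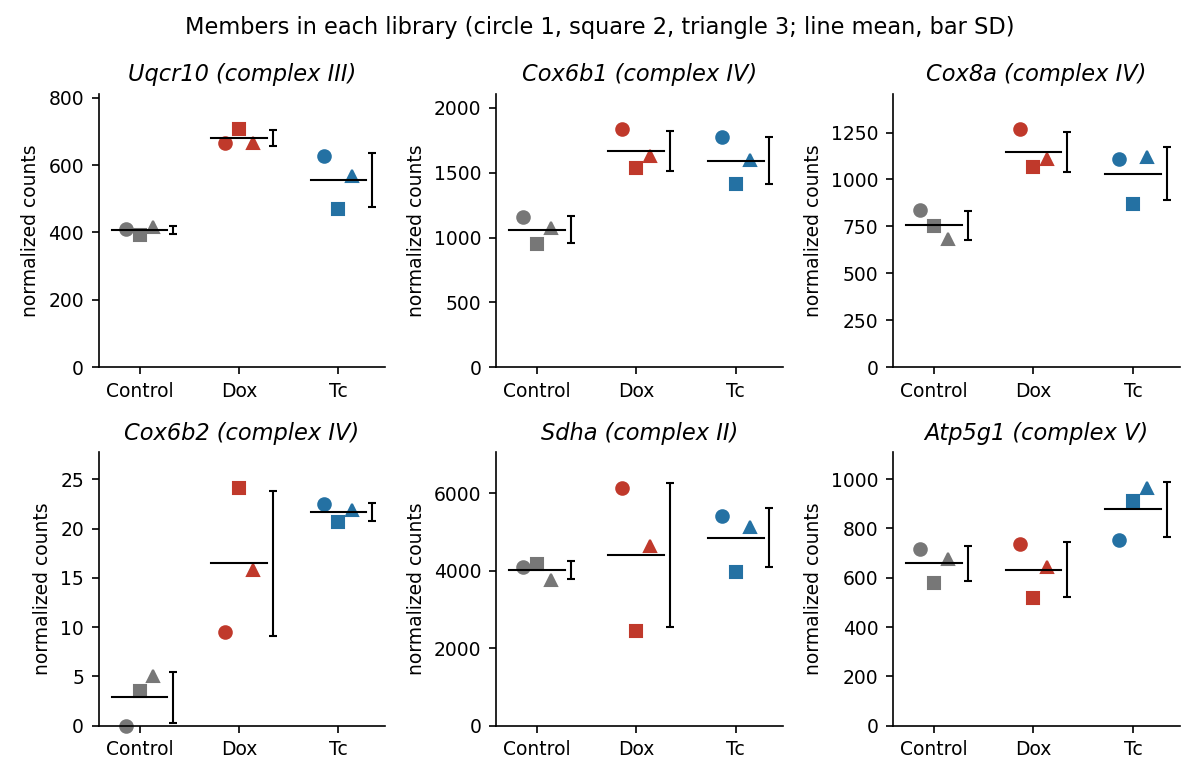
Normalized counts (vertical, from 0) of 6 members in Control, Dox and Tc (horizontal), with a symbol for each library, a line for the mean and a bar for the SD of 3 libraries. Uqcr10, Cox6b1 and Cox8a are higher in all Dox and Tc libraries than in any control, Sdha ranges from 2449 to 6144 among the Dox libraries, and Atp5g1 is higher in every Tc library than in any Dox library.

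In complex II limma and DESeq2 called 0 of 4 members with Dox, and 1 was higher at an unadjusted limma p under 0.05, beside 13.6% of all genes. Sdha, the flavoprotein that oxidizes succinate, had 4103, 4183 and 3754 normalized counts in Control and 6144, 2449 and 4649 in Dox. The Dox libraries lay on both sides of the controls, and the log2 difference was 0.040 with a 95% interval from -0.66 to 0.74. Sdhb, the iron-sulfur subunit that takes the electrons from Sdha, had 1267, 1076 and 1257 in Control and 1775, 1410.3 and 1558 in Dox. Its Dox libraries were all above the controls, with a log2 difference of 0.40 (standard error 0.15, limma adjusted p = 0.125). In a ratio chosen after the values were seen, Sdha stood at 3.24, 3.89 and 2.99 times Sdhb in Control, 3.46, 1.74 and 2.98 in Dox and 3.82, 3.62 and 4.36 in Tc, so that Dox library 2 was the lowest of the 9. The membrane anchors differed in spread: Sdhc had 1225, 1262 and 1191 in Control and 1645, 981 and 1465 in Dox, and Sdhd had 1345, 1406 and 1279 in Control and 1379, 1432 and 1359 in Dox. Sdhd was the steadiest of the 4, with a log2 difference of 0.050, and that of Sdhc was 0.12.

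In complex III the core proteins and the Rieske protein stood together, while the small subunits spread. Uqcrc1, a core protein, had 1899, 2092 and 1833 normalized counts in Control and 2879, 2502 and 2498 in Dox. Its partner Uqcrc2 had 1749, 1983 and 1777 in Control and 2598, 2419 and 2448 in Dox. Uqcrfs1, the Rieske protein that carries electrons towards cytochrome c1, had 1380.3, 1309 and 1385 in Control and 1844, 1566 and 1649 in Dox. All 3 lay above the controls in every Dox library, with log2 differences of 0.43, 0.44 and 0.31 that missed the threshold (limma adjusted p = 0.104, 0.0655 and 0.134). DESeq2 called Uqcrc1 and Uqcrc2 (adjusted p = 0.0480 and 0.00894). Of the 86-base windows of Uqcrc2, 23.3% also occur in Pdzd9 on the other strand, and the strand setting of the counting is not given in the sources used here.

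Among the small subunits, Uqcrh, the hinge protein that helps cytochrome c dock, had 664, 653 and 717 in Control and 889, 943 and 904 in Dox, with a log2 difference of 0.43 (standard error 0.12, limma adjusted p = 0.0562, DESeq2 adjusted p = 0.00998). The Dox libraries did not overlap the controls. Uqcrb, which had 333, 347 and 306 in Control and 499, 351 and 428 in Dox, also lay above them, with a log2 difference of 0.36. Uqcrq and Uqcr11 had the lowest log2 differences of the complex. Uqcrq, at -0.16, had 1461, 1739 and 1476 normalized counts in Control and 1629, 1135 and 1454 in Dox. Uqcr11, at -0.091, had 613, 702 and 595 in Control and 822, 395 and 653 in Dox. In both, Dox library 2 was the lowest of the 9 libraries. With the same total per library the differences of Uqcrq and Uqcr11 turned positive, at 0.015 and 0.083.

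In complex IV, 7 of 12 members had every Dox library above every control, beside 16.1% of all genes, and 8 of 12 had an unadjusted limma p under 0.05 and were higher, beside 13.6%. Cox6b2 is in both counts. Cox4i1, the common isoform of the subunit through which ATP is known to regulate the enzyme, had 2578, 3503 and 2764 normalized counts in Control and 3225, 3061 and 3140.0 in Dox. The groups overlapped, with a log2 difference of 0.10 and a 95% interval from -0.25 to 0.46. Cox5a, on the matrix side, had 974, 935 and 952 in Control and 1432, 1147 and 1246 in Dox. Cox5b, its zinc-binding neighbour, had 381, 384 and 333 in Control and 528, 462 and 472 in Dox. Neither overlapped the controls, and their log2 differences were both 0.41 (limma adjusted p = 0.113 and 0.0640). Set against Cox4i1 in the same library, a ratio chosen after the values were seen, Cox6b1 stood at 0.449, 0.271 and 0.390 in Control, 0.569, 0.502 and 0.519 in Dox and 0.588, 0.562 and 0.514 in Tc. Every treated library lay above every control in this ratio.

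Cox6b2 had 0, 3.54 and 5.09 normalized counts in Control, 9.48, 24.2 and 15.8 in Dox and 22.5, 20.7 and 21.9 in Tc. These rest on 0, 4 and 4 recovered reads in Control, 9, 21 and 18 in Dox and 23, 23 and 26 in Tc, and the gene passed the filter on low values only through the treated groups. The groups did not overlap the controls. The log2 difference with Dox was 2.44 on the log2(count + 1) scale and 2.91 with Tc. A gene kept through the groups in which it is high had to differ from Control, so these are descriptions and no test is given. Per kilobase of merged exons, Cox6b1 stood at 1499 in Control and Cox6b2 at 2.60.

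Of the other complex IV subunits, Cox6c had 235, 265 and 247 in Control and 382, 327 and 348 in Dox, and Cox7b had 865, 746 and 746 in Control and 1105, 1029.5 and 1048 in Dox. Both were above all controls with log2 differences of 0.50 and 0.44 (limma adjusted p = 0.0570 and 0.0577), just short of the threshold, and DESeq2 called both. Cox7a2, the isoform of subunit 7a found outside muscle, had 439, 419 and 512 in Control and 835, 505 and 681 in Dox, whereas Cox7a2l, a related factor that joins complexes III and IV into supercomplexes, had 381, 489 and 439.9 in Control and 415, 669 and 473 in Dox. In Cox7a2 Dox library 2 was the lowest of its group, and in Cox7a2l it was the highest. Their log2 differences were 0.53 and 0.23. Cox6a1 (0.11) and Cox7c (0.25) overlapped the controls, and 49.2% of the windows of Cox7c occur in other genes.

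In complex V, limma called 0 of 17 members with Dox, beside 3.16% of all genes called higher. At an unadjusted limma p under 0.05 there were 5, all higher, beside 13.6%. DESeq2 called 1, Atp5a1, higher, beside 5.05% of the genes it tested. The catalytic head stood above the controls. Atp5a1, the alpha subunit, had 6725, 6564 and 6576 normalized counts in Control and 9852, 9615 and 9335 in Dox, and Atp5b, the beta subunit with the catalytic sites, had 10766, 9917 and 9918 in Control and 13433, 12228 and 12470.1 in Dox. Neither overlapped the controls. The log2 difference was 0.54 for Atp5a1 (standard error 0.15, limma adjusted p = 0.0621, DESeq2 adjusted p = 3.90e-04) and 0.32 for Atp5b (limma adjusted p = 0.235). Their ratio, chosen after the values were seen, was 0.625, 0.662 and 0.663 in Control, 0.733, 0.786 and 0.749 in Dox and 0.725, 0.689 and 0.677 in Tc, so each treated library was above each control.

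In the central stalk that turns inside the head, Atp5c1 (gamma) had 959, 943 and 1072 in Control and 1525, 1179 and 1301 in Dox, above all controls (log2 difference 0.42, limma adjusted p = 0.117). Atp5d (delta) and Atp5e (epsilon) overlapped the controls, at 0.27 and 0.17. In the peripheral stalk that holds the head still, Atp5o had 802, 895 and 753 in Control and 1276, 951 and 1117 in Dox (0.44, limma adjusted p = 0.127), while Atp5f1, Atp5h and Atp5j were at 0.30, 0.083 and 0.068 with overlap. Of the exons of Atp5o, 35.6% lie opposite those of other genes. The membrane subunits, which help dimers form at the cristae, ranged widely: the log2 difference of Atp5mpl was at 0.39, Atp5j2 at 0.027, Atp5k at -0.12 and Atp5l at 0.69, the latter from 18.0, 17.7 and 16.5 in Control and 17.9, 50.6 and 25.5 in Dox. Atp5s, which encodes coupling factor B, had 43.4, 26.5 and 35.6 in Control and 29.5, 47.2 and 44.9 in Dox (0.20).

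The genes Atp5g1, Atp5g2 and Atp5g3 encode the same mature c subunit of the rotor ring with different import sequences. Atp5g1 had 717, 580.4 and 678 normalized counts in Control, 738, 519 and 642 in Dox and 754, 912 and 965 in Tc, and Atp5g3 had 1837, 1789.7 and 1818 in Control, 2627, 2054 and 2434 in Dox and 2551, 1942 and 2456 in Tc. With Dox, Atp5g1 overlapped the controls (log2 difference -0.065) and Atp5g3 was above them all (0.38, limma adjusted p = 0.141). With Tc both were above all controls, at 0.41 and 0.34 (limma adjusted p = 0.406 and 0.432). Atp5g2 had 118, 173 and 129.7 in Control, 162, 183 and 173 in Dox and 149, 143 and 161 in Tc, but 100% of the windows of its transcript, and 58.5% of those of Atp5g1, occur in other genes, so both counts are uncertain. Under the same total per library, the Dox difference of Atp5g1 turned to 0.11.

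**Figure D4:**
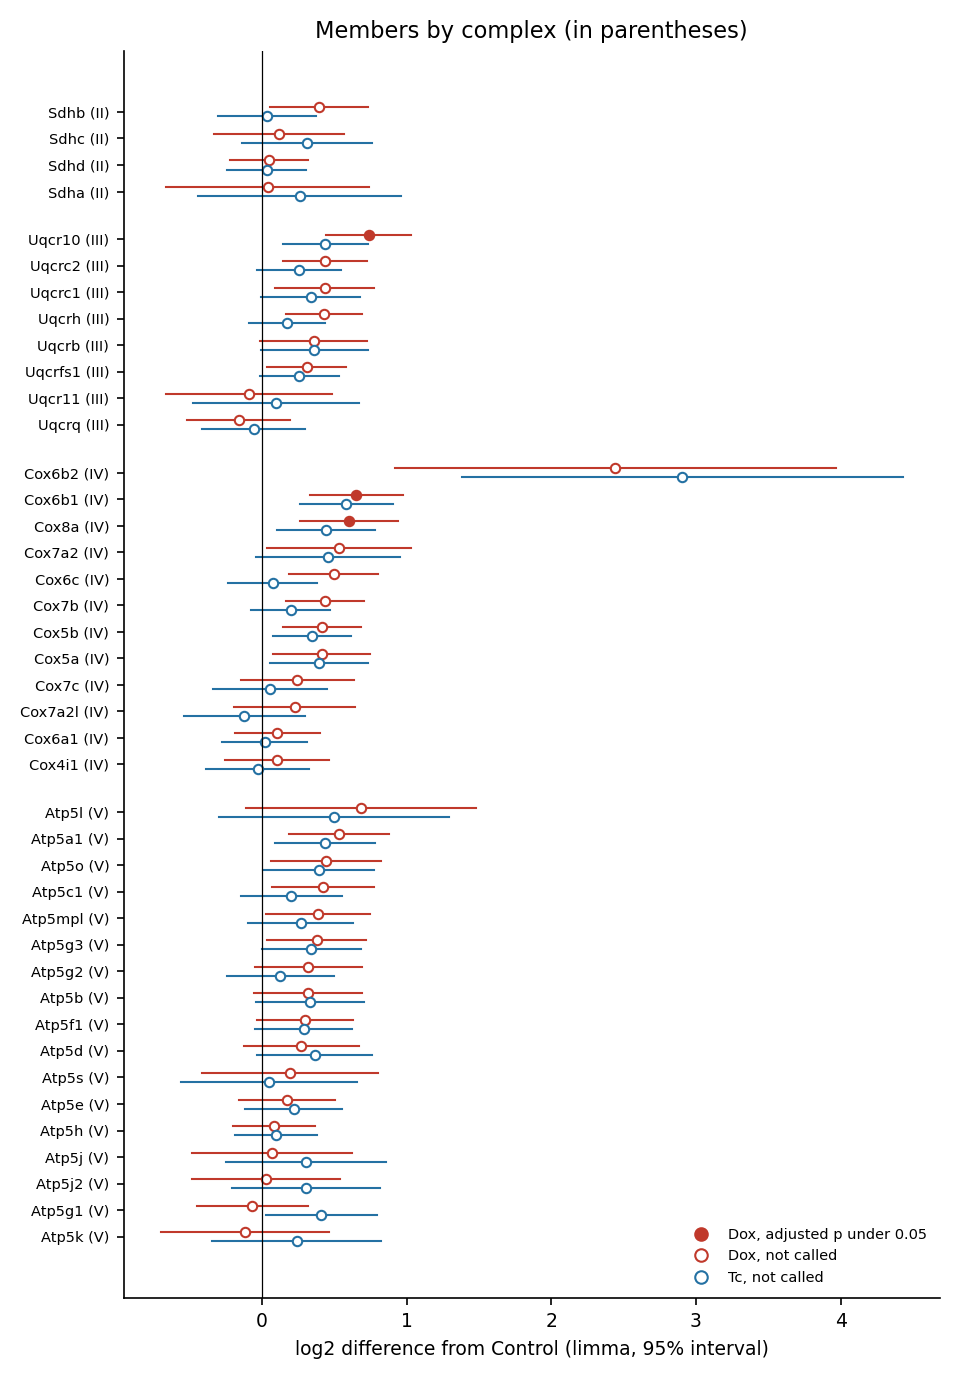
Log2 difference from Control (horizontal, limma estimate with its 95% interval) of each of the 41 genes, grouped by complex, in red for Dox and blue for Tc, and filled circles mark an adjusted p under 0.05. The filled circles are Uqcr10 (0.74), Cox6b1 (0.65) and Cox8a (0.60), and Cox6b2 lies farthest right with both drugs and has the widest interval.

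With Tc, limma called 0 of 41 members higher, beside 0.0413% of all genes, and 0 lower, beside 0.14%. At an unadjusted limma p under 0.05 there were 9, all higher, beside 5.27% of all genes, and DESeq2 called 3 (Cox6b2 with Atp5a1 and Cox6b1), beside 0.697%. Every Tc library lay above every control in 20 members, beside 15.8%, and both libraries 1 and 2 above both control libraries 1 and 2 in 23, beside 23.6%. Without libraries 3, limma and DESeq2 called 0, and 1 had an unadjusted limma p under 0.05, beside 0.802%. Limma called Cox6b1 without Dox library 2, beside 2.17% of all genes called higher in that fit, and when only the Tc and Control libraries entered the fit, beside 3.16%. Without Cox6b2, which the filter on low values kept only through the treated groups, these counts over 40 members were 8 at an unadjusted p, 2 by DESeq2, 19 above every control and 0 at an unadjusted p without libraries 3.

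Cox6b1 stood above the controls with Tc too, with a log2 difference of 0.58 (standard error 0.14, limma adjusted p = 0.180). Uqcr10 stood at 0.44 (limma adjusted p = 0.266) and Cox8a at 0.44 (limma adjusted p = 0.321). In complex II, Sdhc was the one member with Tc libraries above all controls, at 1716, 1326 and 1545 normalized counts and a log2 difference of 0.31 (limma adjusted p = 0.602). Sdha was at 0.26, from 5416, 3980.1 and 5142 normalized counts, and Sdhb and Sdhd were both at 0.033. In complex III, Uqcrb (0.36) and Uqcrfs1 (0.26) did not overlap the controls, while Uqcrc1 (0.34) and Uqcrc2 (0.26) did.

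In complex IV with Tc, Cox5a and Cox5b were above all controls with log2 differences of 0.39 and 0.34. Cox5a had 1434, 1048 and 1308 normalized counts with Tc, and Cox5b had 492, 433 and 467. Cox6c overlapped them, at 305, 244 and 242 and a log2 difference of 0.074. The lowest log2 differences were those of Cox7a2l (-0.12) and Cox4i1 (-0.028). In complex V, 10 of 17 members did not overlap the controls with Tc, beside 15.8% of all genes, and 6 of 17 with Dox, beside 16.1%, a difference that was not tested. Atp5a1 had 9851, 7782 and 9324 normalized counts with Tc, a log2 difference of 0.43 (limma adjusted p = 0.345, DESeq2 0.0210), and Atp5b had 13591, 11289 and 13776, at 0.33. All 17 log2 differences of complex V were above 0, the lowest being that of Atp5s (0.047).

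Dox and Tc, given at the same concentration in water and for the same time, were compared directly for the same 41 genes. The p-values were adjusted over all 12100. Limma called 0 members in either direction, beside 0.231% of all genes, and DESeq2 0, beside 5.19%. At an unadjusted limma p under 0.05 there were 4 members, Sdhb, Uqcr10 and Cox6c higher with Dox and Atp5g1 lower, beside 21.7% of all genes. Without libraries 3 there were 0, beside 3.75%. With the replicate number as a block in the fit, limma called 0 members and 2 of all 12100 genes at an adjusted p under 0.05. The median difference of the members was 0.068, beside -0.016 for all genes, and 27 of 41 were above 0. Without Dox library 1 it was -0.0040 and without Tc library 2 it was -0.035, so its sign rested on those libraries. Under the same total per library, the members' median was 0.24 and that of all genes 0.16, a difference of 0.087 against 0.084 with the deposited scaling. That difference could hardly change, since the rescaling moves all genes of a library nearly alike.

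Cox6c had the largest log2 difference of the 3 that were higher with Dox, 0.42 with a 95% interval from 0.11 to 0.73 (limma adjusted p = 0.158). Its Dox libraries at 382, 327 and 348 lay above the Tc libraries at 305, 244 and 242. Sdhb differed by 0.36 (from 0.023 to 0.70, limma adjusted p = 0.213), with Tc libraries at 1418, 1099 and 1179 that overlapped the Dox libraries, and Uqcr10 by 0.30 (from 0.0087 to 0.60, limma adjusted p = 0.223). Atp5g1 was lower with Dox in every library and differed by -0.48 (from -0.86 to -0.094, limma adjusted p = 0.174). Without Dox library 1 limma called it, alone of the 41 members, in a fit that called 2526 of all 12100 genes in either direction. Of the windows of Atp5g1, 58.5% occur in other genes. For Cox6b1 the difference between the drugs was 0.068 with an interval from -0.25 to 0.39, and for Cox8a 0.16 (from -0.18 to 0.49), so differences of that size in either direction cannot be told from 0 here. The interval was widest for Cox6b2 (from -1.99 to 1.06) and wide for Sdha (from -0.92 to 0.48). By complex, the median difference was -0.087 in complex II, 0.074 in III, 0.11 in IV and 0.0090 in V. In complex IV, 11 of 12 members were higher with Dox, the exception being Cox6b2 (-0.46).

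Within the drug groups, most members were higher in library 1 than in library 2. Library 1 was above library 2 for 33 of 41 members in Dox and 39 of 41 in Tc, but for 19 of 41 in Control, with median log2 differences of 0.25, 0.29 and -0.028. Libraries 1 and 2 were over 1.5-fold apart for 12 members in Dox (29.3%, beside 57.0% of all genes), 1 in Tc (2.40%, beside 20.4%) and 2 in Control (4.90%, beside 14.7%), a smaller share of members than of all genes in each group. In Dox the largest gaps with library 1 higher were in Sdha (2.51-fold), Atp5j (2.12-fold), Uqcr11 (2.08-fold), Atp5j2 (1.87-fold) and Atp5k (1.84-fold). Atp5l, Cox6b2, Cox7a2l and Atp5s were higher in library 2, with ratios of library 1 to library 2 of 0.366, 0.416, 0.620 and 0.633. In Tc only Cox7a2 passed that limit (1.51-fold). By complex, the median gap in Dox was 0.54 in complex II, 0.22 in III, 0.18 in IV and 0.42 in V, and in Tc 0.37, 0.32, 0.33 and 0.27.

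**Figure D5:**
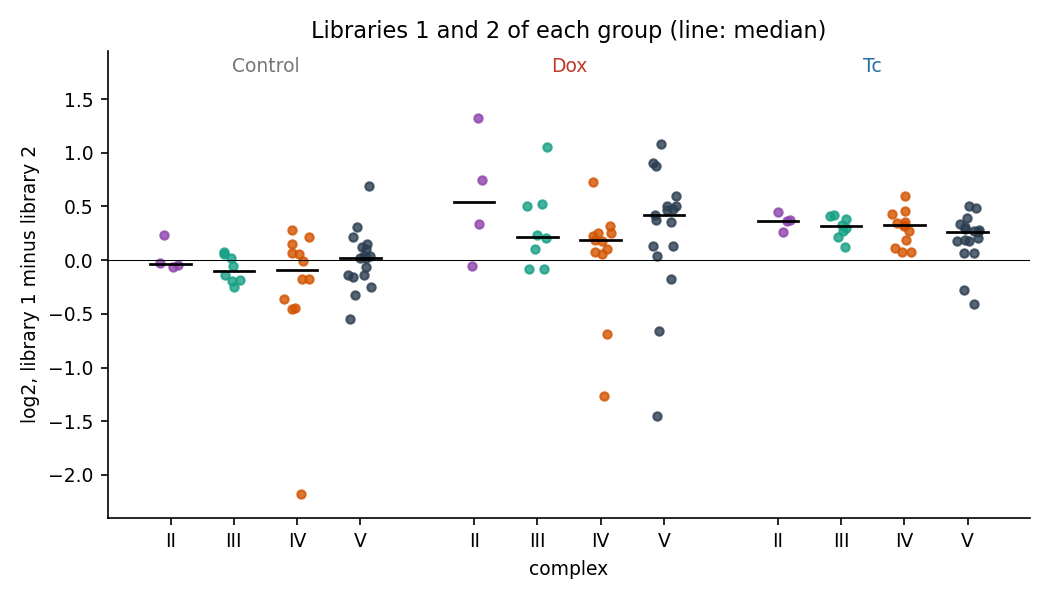
Log2 difference of library 1 minus library 2 (vertical) of each member by complex (horizontal) in Control, Dox and Tc, with a line for the median of each complex. The points spread most in Dox, from Sdha at 2.51-fold higher in library 1 to Atp5l with a ratio of library 1 to library 2 of 0.366, lie closer together and mostly above 0 in Tc, and are centered near 0 in Control, where Cox6b2 with few reads is the lowest.

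Partner genes outside the symbol rule were described from lists. Cycs, the somatic cytochrome c that carries electrons from complex III to IV, had 112, 135 and 127 normalized counts in Control, 231, 181 and 193 in Dox and 240.2, 214 and 213 in Tc. It rose with Dox by a log2 difference of 0.68 (limma adjusted p = 0.0269), which was 0.72 without libraries 3 (limma adjusted p = 0.571), and with Tc the difference was 0.83 (limma adjusted p = 0.0746, DESeq2 8.69e-04). Neither Cyc1, the cytochrome c1 of complex III (0.32 with Dox, 0.26 with Tc), nor Ndufa4, a complex IV subunit (0.22 and 0.13), was called. Atpif1, the inhibitor that keeps the ATP synthase from running backwards, had 67.7, 95.5 and 75 normalized counts in Control, 67.4, 52.9 and 70.4 in Dox and 79.1, 92.6 and 114 in Tc. Its log2 difference was -0.31 with Dox and 0.26 with Tc, neither called, and the Dox libraries lay below all Tc libraries. Of the 6 mitochondrially encoded partners 2 could be tested, since mt-Co2, mt-Co3 and mt-Atp8 were listed at 0 in every library and mt-Atp6 reached 1.20 at most. These were mt-Co1, with 40983, 29172 and 45214 in Control and 67718, 70142 and 65133 in Dox (0.84, limma adjusted p = 0.110, DESeq2 0.00555), and mt-Cytb (0.79, limma adjusted p = 0.123, DESeq2 0.0365). With Tc they were at 0.62 and 0.55 and were called by neither tool.

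Of the assembly factors limma called 1 with Dox, Uqcc3, and 0 with Tc, while DESeq2 called Uqcc3 with both drugs and Cox11 with Dox. Over all 12100 genes, limma called 1018 with Dox and 22 with Tc in either direction. At an unadjusted limma p under 0.05 these were 3516 and 1412, and DESeq2 called 2142 and 328 of 19659 genes. Of 6 for complex III, Uqcc3 fell with Dox, from 214, 164 and 155 normalized counts in Control to 101, 87.4 and 94.1 (log2 difference -0.89, limma adjusted p = 0.0163), with 96.7, 95.3 and 108 in Tc (-0.81, limma adjusted p = 0.106, DESeq2 0.00532). Without libraries 3 the Dox difference was -0.99 (limma adjusted p = 0.559). It is needed for the stability of newly made cytochrome b. Of 23 tested factors of complex IV 0 were called by limma (DESeq2 called 1 with Dox and 0 with Tc, and the unadjusted limma p was under 0.05 for 3 and 4), with medians of -0.21 with Dox and 0.057 with Tc. The smallest p-values belonged to Cox11, a copper carrier (0.97, limma adjusted p = 0.0592, DESeq2 0.0217), and Coa6 (-0.45) with Dox, and to Sco2 (-0.51) and Slirp (0.51) with Tc. Of 4 for complex II and 4 for complex V 0 were called, by limma at either p or by DESeq2, with Dox values of -0.66 for Sdhaf4, -0.097 for Sdhaf1, 0.32 for Fmc1 and 0.15 for Tmem70. With Tc, Sdhaf2 stood at 0.25, Sdhaf1 at -0.20, Atpaf2 at 0.34 and Tmem70 at 0.16, and Lyrm7 of complex III at 1.33, and none was called. Lyrm7 had only 12.7, 6.2 and 3.8 normalized counts in Control, 13.7, 12.7 and 17.6 in Dox and 22.5, 22.5 and 12.6 in Tc. It passed the filter on low values only through the treated groups, so its difference is a description. The 36 nuclear subunits of complex I had medians of 0.19 with Dox and 0.21 with Tc, with 24 and 33 of 36 above 0. Limma called 0 with either drug, DESeq2 2 and 0, and the unadjusted limma p was under 0.05 for 5 and 2. Ndufa6 (0.37) and Ndufs7 (0.54) had the smallest p-values with Dox, and Ndufs7 (0.60) and Ndufb5 (0.45) with Tc.

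Of 9 regulators of respiratory gene expression, 2 rose and 1 fell with Dox in the limma test, beside 3.16% and 5.26% of all genes. With Dox DESeq2 called 4, and 4 had an unadjusted limma p under 0.05. With Tc limma called 0 and DESeq2 1, and 1 had an unadjusted limma p under 0.05. The coactivator Ppargc1b had 166, 127 and 156 normalized counts in Control and 280.1, 639.6 and 409 in Dox. Its relative Pprc1 had 206, 187 and 197 in Control and 298, 691 and 437 in Dox. Both rose with Dox (log2 differences 1.48 and 1.19, limma adjusted p = 0.0272 and 0.0492). Without libraries 3 the differences were 1.53 and 1.21 (limma adjusted p = 0.559 and 0.573). Both were highest in Dox library 2, the library in which the members stood lowest of the Dox group. Tfam, which packages and transcribes mitochondrial DNA, fell from 743, 584 and 723 to 463, 439 and 419.7 with Dox (log2 difference -0.62, limma adjusted p = 0.0369), and without libraries 3 it was -0.54 (limma adjusted p = 0.578). With Tc, Tfam was at -0.59 (limma adjusted p = 0.185, DESeq2 0.0322) and Ppargc1b at 0.51. Outside the cell markers, 8 limma calls were named with Dox, those of Uqcr10, Cox6b1, Cox8a, Cycs, Uqcc3, Ppargc1b, Pprc1 and Tfam. Of these, 0 were kept without libraries 3, without any single control library or without Dox library 3. Without Tc library 3, Uqcr10 and Uqcc3 were kept, and without Tc library 1 those of Cox8a, Pprc1 and Tfam were lost.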

How the data were processed

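Bulk liver RNA was sequenced as 86-base single reads from directional libraries, 3 per group. Per the study's methods, the authors trimmed reads with cutadapt, aligned them with STAR 2.7.11ac to mm10, counted unique reads with HTSeq 2.0.5 and divided the counts by DESeq2 1.42.0 size factors. The deposited values are these normalized counts per gene, a signal relative to each library's size factor. The strand setting of the counting is not given in the sources used here.

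Values were tested as log2(value + 1) with limma 3.58.1 in R 4.3.3, in 1 model of all 9 libraries, for 12100 genes with a mean of at least 10, with Benjamini-Hochberg adjustment and a call at an adjusted p under 0.05 with no fold limit. All values (100%) came out as whole reads within 0.01, and DESeq2 1.42.0 and edgeR 4.0.16 were run on them as alternatives. Other alternatives were the pseudocount, the filter, the same total per library, only both groups in the fit, the replicate number as a block, libraries left out and other thresholds. The steps were tested on simulated data. Deviations from the group means correlated between Dox and Tc libraries of the same number (r = 0.287, 0.321 and 0.182 over genes). Pairs of the same number with Control ranged from -0.081 to 0.055. Libraries of unlike number were not compared, and libraries 3 are close to mixtures of libraries 1 and 2. These r are thus not separate results, and whether the numbers mark pairs of libraries cannot be told from them. The labels name no separate animals per number, and p-values measure the spread between these libraries.

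Full statistics were given for members called, the 2 with the smallest limma p in each complex and comparison with Control, the core subunits and sets of paralogs. In gene lists outside the rule, genes called or the 2 with the smallest p were named. Members and lists were chosen with earlier results of these data known. Lengths and coordinates were taken from GENCODE M21 (GRCm38).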

Additional observations from a re-analysis of the deposited data

How the results depend on the processing

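The count of members called with Dox, 3, was 11 with the same total per library (beside 5.1% of all genes called higher) and 11 with DESeq2. It was 1 with only both groups in the fit, and 0 without libraries 3 in limma and in DESeq2. Under the study's thresholds with a fold over 2, set on the limma fit, it was 0. The study used DESeq2, where Cox6b2, which the filter kept only through the treated groups, passed these thresholds with either drug. The count was 19 without adjustment and from 0 to 18 without 1 library. It was 2 with the replicate block, where Cox8a was not called (limma adjusted p = 0.0516), and the block changed no other member's call. Of the 8 calls named with Dox outside the cell markers, the block left 3, those of Cox6b1, Uqcr10 and Uqcc3. For Tc the count of 0 was 3 with DESeq2, 2 with only both groups in the fit, 9 without adjustment and from 0 to 2 without 1 library, and for Dox against Tc it was 4 without adjustment and from 0 to 1 without 1 library. With the same total per library the medians of complexes III, IV and V were 0.57, 0.60 and 0.47 with Dox and 0.25, 0.28 and 0.18 for Dox against Tc. Without 1 library, the Dox medians ranged from 0.012 to 0.38 for complex II, 0.30 to 0.43 for III, 0.37 to 0.47 for IV and 0.28 to 0.34 for V, those of Tc from 0.083 to 0.26, 0.20 to 0.33, 0.21 to 0.32 and 0.26 to 0.37, and those of Dox against Tc from -0.18 to 0.092, -0.025 to 0.13, 0.029 to 0.19 and -0.085 to 0.066. Control levels per kilobase were 536, 685, 454 and 341 for complexes II to V without the highest member, and 1071, 1088, 890.4 and 925 with the principal transcript.

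Of 130 values of named genes, 22 had another sign under some alternative, and none of these was called in either setting. With the same total per library, the log2 difference turned to 0.16 for Atp5b in Dox against Tc, and 0.11 for Atp5g1, 0.058 for Atp5k, 0.075 for Sdhaf1, 0.083 for Uqcr11, 0.015 for Uqcrq in Dox against Control. Without libraries 3, the log2 difference turned to 0.049 for Atp5b in Dox against Tc, and -0.11 for Atp5j2, -0.095 for Sdha in Dox against Control, and -0.064 for Cox6a1, -0.078 for Cox7c, -0.050 for Sdhd, -0.021 for Uqcr11 in Tc against Control. With DESeq2 and without libraries 3, the log2 difference turned to 0.050 for Atp5b in Dox against Tc, and -0.033 for Atp5j2 in Dox against Control, and -0.054 for Cox6a1, -0.077 for Cox7c, -0.042 for Sdhd, -0.012 for Uqcr11 in Tc against Control. Leaving out 1 library at a time, the log2 difference changed sign for Dox against Control in Atp5g1 (from -0.18 to 0.071), Atp5j (from -0.18 to 0.36), Atp5j2 (from -0.18 to 0.27), Atp5k (from -0.27 to 0.17), Sdha (from -0.25 to 0.42), Sdhaf1 (from -0.23 to 0.030), Sdhc (from -0.032 to 0.34), Uqcr11 (from -0.32 to 0.21), and for Tc against Control in Atp5s (from -0.14 to 0.21), Cox4i1 (from -0.12 to 0.10), Cox6a1 (from -0.043 to 0.13), Cox6c (from -0.035 to 0.13), Cox7c (from -0.028 to 0.20), Sdhb (from -0.072 to 0.11), Sdhd (from -0.015 to 0.12), Uqcrq (from -0.10 to 0.026), and for Dox against Tc in Atp5b (from -0.11 to 0.036), Atp5g3 (from -0.085 to 0.14), Cox6b1 (from -0.018 to 0.15), Sdha (from -0.51 to 0.15). The cause was not tested. Depth limits the lowest members, Cox6b2 above all, and p-values rest on libraries 3 that are close to mixtures of libraries 1 and 2.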
